A study of Mus musculus with 4 samples.

Results

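The Serpina genes encode secreted serpins, blood proteins made mainly by hepatocytes. Of the 31253 features measured in 4 spatial transcriptomes of mouse liver, 10 were taken up here by symbol: the alpha-1-antitrypsin copies Serpina1a, Serpina1b, Serpina1c, Serpina1d and Serpina1e, the antichymotrypsin-like genes Serpina3k, Serpina3m and Serpina3n, Serpina6 and Serpina7. All 10 were detected in every section and passed the filter on low counts in every comparison. The sections were 10x Visium slides of fresh-frozen liver, in which each spot captures the RNA of several neighbouring cells. MAFL-1 and MAFL-2 came from the model labelled MAFL after 8 weeks on a diet labelled WD, and MASH-1 and MASH-2 from the model labelled MASH after 16 weeks on it. Model and weeks of diet change together and cannot be told apart. The labels give no strain, sex or age and do not tie sections to animals. The p-values therefore reflect how far sections of 1 group lie apart, and that distance can be technical.

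Most serpins trap serine proteases by offering them a loop that, once cut, locks the enzyme in a complex. Alpha-1-antitrypsin is the main inhibitor of neutrophil elastase in blood, and the mouse carries several near-identical copies where the human genome has a single gene. Serpina6, corticosteroid-binding globulin, and Serpina7, thyroxine-binding globulin, do not inhibit proteases: they carry glucocorticoids and thyroid hormone in plasma and release them. The liver lobule runs from the portal tract to the central vein, and hepatocytes along this axis carry out different tasks.

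Sequences upstream of the genes show how alike the Serpina1 copies are and what Serpina7 shares with them. RefSeq promoter windows (GRCm38.p6) were matched for 7 of the 10 genes (Serpina1a to Serpina1e, Serpina3n and Serpina7). The copies lie within one cluster on chromosome 12, all read from the minus strand. Windows of 96 bases around a shared GTTAAT, the core motif of the hepatocyte factor HNF1, printed in capitals, come from chr12:103863625-103863720 for Serpina1a, chr12:103738200-103738295 for Serpina1b, chr12:103904962-103905057 for Serpina1c, chr12:103773634-103773729 for Serpina1d and chr12:103956960-103957055 for Serpina1e. They are given 5′ to 3′ on the strand of the gene.
Serpina1a: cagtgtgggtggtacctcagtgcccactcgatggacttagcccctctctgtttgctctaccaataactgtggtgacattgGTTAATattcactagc
Serpina1b: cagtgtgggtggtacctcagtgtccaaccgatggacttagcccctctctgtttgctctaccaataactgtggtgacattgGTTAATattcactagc
Serpina1c: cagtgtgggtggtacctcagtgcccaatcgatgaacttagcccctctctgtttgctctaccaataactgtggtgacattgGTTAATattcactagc
Serpina1d: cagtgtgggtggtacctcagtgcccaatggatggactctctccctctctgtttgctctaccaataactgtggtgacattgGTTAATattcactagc
Serpina1e: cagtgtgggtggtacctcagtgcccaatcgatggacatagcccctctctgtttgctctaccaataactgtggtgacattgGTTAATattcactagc
Between any pair of copies 2 to 7 of the 96 bases differed. Serpina1e differed from Serpina1a and from Serpina1c at 2 bases each, and from Serpina1d at 6. The GTTAAT began 16 to 27 bases before the annotated start of Serpina1a to Serpina1d and 78 bases before that of Serpina1e, whose start is annotated further downstream. Serpina7 lies on the minus strand of chromosome X, and the 250 bases before its start are at chrX:139085237-139085486.
Serpina7: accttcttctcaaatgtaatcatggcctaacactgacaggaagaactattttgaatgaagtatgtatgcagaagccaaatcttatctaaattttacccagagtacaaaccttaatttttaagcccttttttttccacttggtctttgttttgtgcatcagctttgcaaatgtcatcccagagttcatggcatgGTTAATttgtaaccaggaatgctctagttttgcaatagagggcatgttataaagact
It held the same GTTAAT, again in capitals, 57 bases before the start. Letters were searched on both strands of the 250 bases before each start, and GTTAAT was present in 6.43% of all 32851 promoters in the table. The C/EBP pattern TTNNGCAA was found for Serpina1b, Serpina1d, Serpina1e and Serpina7 (9.56% of promoters), and the TATA box TATAAA for Serpina7 (12.4%). The full HNF1 palindrome (0.00913%), the STAT pattern TTCNNNGAA (7.02%) and the HNF4 pattern CAAAGTCCA (0.384%) were in none of the 7 windows. A match is a run of letters in this window and not a measured site.

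The sections held 1862 to 2467 spots and 32249289 to 63808230 UMIs (unique molecular identifiers, each a captured transcript), with medians of 15430.5 and 19671 UMIs per spot in MAFL and 25291 and 20132.5 in MASH. Summed hepatocyte markers (11 of 12 listed found) took 90075 to 92080 CPM, counts scaled to 1000000 UMIs, in MAFL and 93766 to 97462 in MASH. Spots were ranked within each section by log2((Cyp2f2 + 1)/(Cyp2e1 + 1)), a periportal over a pericentral enzyme, and split into 3 classes of equal size, called the pericentral, midlobular and periportal zones. Of markers left out of the score, 12 of 12 periportal genes were higher in the periportal zone and 15 of 15 pericentral genes were higher in the pericentral zone. From 128 to 201 spots per section lay near a border of the zones. Every section held 2793 to 5207 UMIs of Y-linked genes and 2 or 3 of Xist, the pattern of male tissue.

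In MAFL liver these 10 genes made up 5.21 and 4.35% of all UMIs, and in MASH 2.98 and 2.72%. Transcripts are counted once each from their 3′ end and are not divided by length. Serpina3k was first and Serpina1c second in every section, and Serpina7 was last in every section. Serpina3m and Serpina3n differed by at most 0.49 on the log2 scale and changed places between sections, as did Serpina1a and Serpina1d, so neither pair had a fixed order. Serpina1e was the third in MAFL-1 and the sixth in the other 3 sections. Its rank differed by 3 between the MAFL sections.

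**Figure D1:**
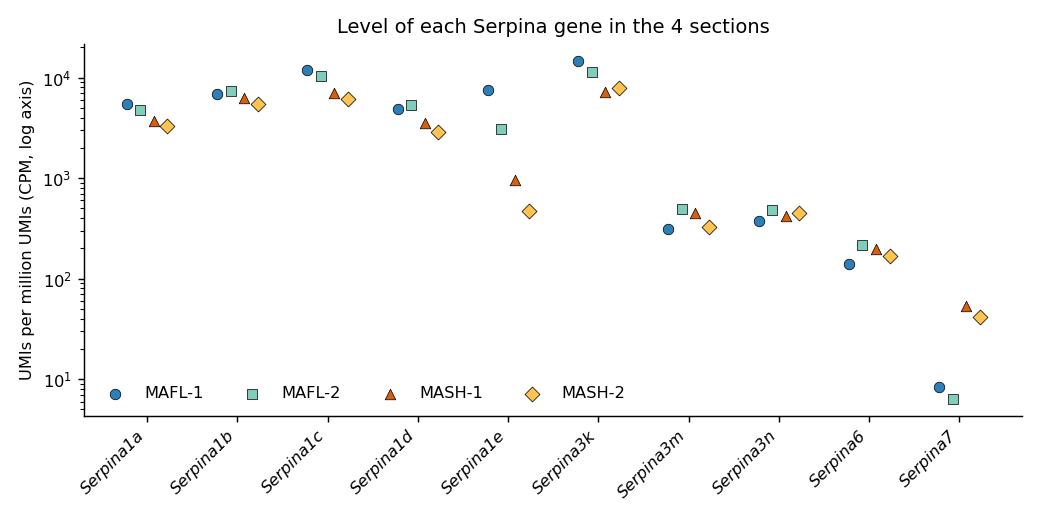
Level of each Serpina gene in the 4 sections, in CPM on a log axis, 1 point per section. Serpina7 sits between 6.40 and 8.37 in MAFL and at 41.4 and 53.4 in MASH, while Serpina1e spans 7553 to 466.

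Serpina7, the thyroxine carrier, rose in MASH. It stood at 8.37 CPM in MAFL-1 and 6.40 CPM in MAFL-2, against 53.4 CPM in MASH-1 and 41.4 CPM in MASH-2, from 270, 244, 3407 and 1846 UMIs. Sections of a group lay close together and the groups were far apart. The means were 7.39 ± 1.39 and 47.4 ± 8.48 CPM (SD, n = 2 each), a 6.04-fold increase after scaling between sections (2.59 on the log2 scale, SE 0.22, adjusted p = 0.00863 in edgeR's quasi-likelihood test). It was the 1 of the 10 members past an adjusted p of 0.05 over whole sections, where 0.456% of all 13593 tested genes passed, 0.309% of them higher and 0.147% lower as shares of all tested. With 2 sections against 2, an exact permutation test of a single gene cannot go below a two-sided p of 0.333, so the calls rest on the spread pooled over genes.

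Serpina7 also had the largest zone difference of the 10. The pericentral, midlobular and periportal zones held 16.7, 5.89 and 2.29 CPM in MAFL-1 and 12.3, 5.65 and 2.02 CPM in MAFL-2. In MASH-1 they held 96.9, 60.5 and 16.6 CPM, and in MASH-2 89.9, 42.6 and 16.7 CPM. The pericentral zone was 7.31, 6.07, 5.84 and 5.38 times the periportal zone, in that order of sections, so the slope was steep in all 4. Over the sections the periportal level was 5.60-fold below the pericentral one (log2 difference -2.49, SE 0.13, adjusted p = 2.2e-07 in edgeR with the section as a block). With the spots in 10 bins of equal size, the level fell at every one of the 9 steps in both MASH sections, from 109 to 13.7 CPM in MASH-1 and from 126 to 9.93 CPM in MASH-2. In MAFL the outermost bins held 21.6 and 2.73 CPM (MAFL-1) and 15.4 and 2.18 CPM (MAFL-2), and there the periportal end rested on 9 and 10 UMIs.

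**Figure D2:**
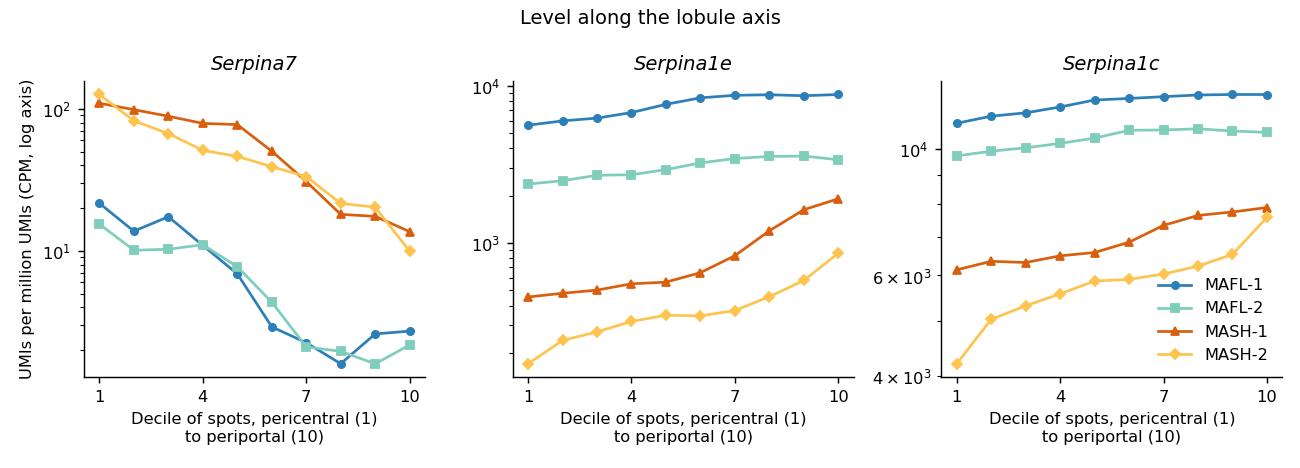
Serpina7, Serpina1e and Serpina1c in 10 equal bins of the spots of each section, ordered from pericentral (1) to periportal (10), in CPM on log axes with separate ranges. Serpina7 is lower at the portal end than at the central end in all 4 sections, and Serpina1e is 4.22-fold and 5.06-fold higher at the portal end of the MASH sections against 1.57-fold and 1.43-fold in the MAFL sections.

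The rise of Serpina7 was present in all 3 zones. It was 5.91-fold pericentrally (2.56 on the log2 scale, SE 0.21, adjusted p = 0.00192 in edgeR), 8.50-fold midlobularly (3.09, SE 0.26, adjusted p = 0.00407) and 7.34-fold periportally (2.88, SE 0.20, adjusted p = 0.000815). No other member passed in any zone, where 0.602, 0.437 and 1.27% of all genes did (0.364, 0.302 and 0.905% higher, 0.237, 0.134 and 0.369% lower). The level in the periportal zone of the MASH sections, 16.6 and 16.7 CPM, lay beside the 16.7 and 12.3 CPM of the pericentral zone in MAFL. The zone difference itself differed by 0.30 on the log2 scale between the groups (SE 0.29, adjusted p = 0.862 in edgeR), so a change of slope was not detected at this precision.

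More spots carried Serpina7 in MASH. With every spot thinned to 5000 UMIs, it was found in 76 of 2001 spots of MAFL-1 (3.80%, exact 95% interval 3.004 to 4.73%) and 67 of 1859 of MAFL-2 (3.604%, 2.80 to 4.55%). In MASH-1 it was found in 628 of 2424 spots (25.9%, 24.2 to 27.7%) and in MASH-2 in 393 of 1846 (21.3%, 19.4 to 23.2%). These intervals cover counting error only. Unthinned, the shares were 11.98, 11.3, 64.7 and 52.4% in the same order. In the pericentral zone the thinned shares were 6.65 and 6.09% in MAFL and 39.6 and 36.5% in MASH, and in the periportal zone 0.901, 0.965, 10.1 and 8.44%. Thinned spots held means of 0.04 and 0.038 Serpina7 UMIs in MAFL and 0.325 and 0.267 in MASH, with 90th percentiles of 0 and 1 UMI. No class of spots free of hepatocytes was defined, so no background share can be set beside these. Fewer cells of a type and less RNA per cell cannot be told apart in a spot, for this gene or the others.

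Serpina1e was lower in MASH, with a wide spread. It stood at 7553 CPM in MAFL-1, 3072 CPM in MAFL-2, 959 CPM in MASH-1 and 466 CPM in MASH-2. Both MASH sections lay below both MAFL sections, but the sections within a group also differed, 2.46-fold in MAFL and 2.06-fold in MASH. The log2 difference over whole sections was -2.97 (SE 0.62), the widest of the 10, and did not pass (adjusted p = 0.136 in edgeR). Without MAFL-2 it was -3.46 and passed (adjusted p = 0.0492). In the pericentral, midlobular and periportal zones it was -3.66 (SE 0.67), -3.54 (SE 0.63) and -2.55 (SE 0.71), with adjusted p-values of 0.116, 0.131 and 0.215 in edgeR. Without MAFL-2 the first pair passed as well, at -4.15 and -4.05 (adjusted p = 0.0207 and 0.0122).

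What passed for Serpina1e was the change of its zone difference. In MAFL-1 the pericentral, midlobular and periportal zones held 6003, 7915 and 8769 CPM, and in MAFL-2 2528, 3108 and 3503 CPM. In MASH-1 they held 486, 638 and 1540 CPM, and in MASH-2 230, 348 and 647 CPM. The periportal zone was 1.46 and 1.39 times the pericentral one in MAFL and 3.17 and 2.82 times in MASH, with no overlap. The interaction of zone and group was 1.13 on the log2 scale (SE 0.10, adjusted p = 2.5e-10 in edgeR), first by p of the 12577 genes tested, of which 0.517% passed (0.302% higher, 0.215% lower). It passed in 14 of 14 alternatives, at 0.87 to 1.41. No other member passed in the reported fit of all sections. With all sections kept, Serpina1c also passed with library totals alone and Serpina3n with genes of at least 10 CPM. Both passed with no filter on low counts. How reads matching several copies were assigned is not given, so values of single copies are uncertain. For the 5 copies summed the interaction was 0.21 (SE 0.11) and did not pass (adjusted p = 0.574 in edgeR). Serpina1e gave 4.46 and 2.55% of the summed UMIs in MASH, so the sum says little about its slope. Without MASH-1 the count rose from 1 to 8 members and without MASH-2 to 4, Serpina1e among them each time. The count over all genes also rose in those fits, from 65 to 447 of 12816 and to 220 of 12512. Serpina1c, for instance, had an interaction of 0.33 (adjusted p = 0.223 in edgeR), of 0.52 without MASH-1 (4.7e-19) and of 0.15 without MASH-2 (0.0093).

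Other zone markers are given beside this. Of the held-out periportal genes 4 of 12 passed this interaction, all upward, with a list median of 0.30. Of the held-out pericentral genes 1 of 15 passed, downward, with a median of -0.44, against a median over all genes of 0.00. Cyp2f2, which set the score with Cyp2e1, was 2.56 and 2.63 times higher periportally in MAFL and 4.14 and 3.33 times in MASH. Cyp2e1 was 6.38 and 4.41 times higher pericentrally in MAFL and 4.31 and 6.23 times in MASH, so there the groups overlapped. Spots of the periportal zone were deeper in MASH (medians of 33004.5 and 34042 UMIs, against 22896 and 15755 pericentrally) than in MAFL (15505 and 22462 against 15631 and 18560). With zones ranked within bins of total UMIs the interaction of Serpina1e was 0.87 (adjusted p = 2.16e-08 in edgeR).

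**Figure D3:**
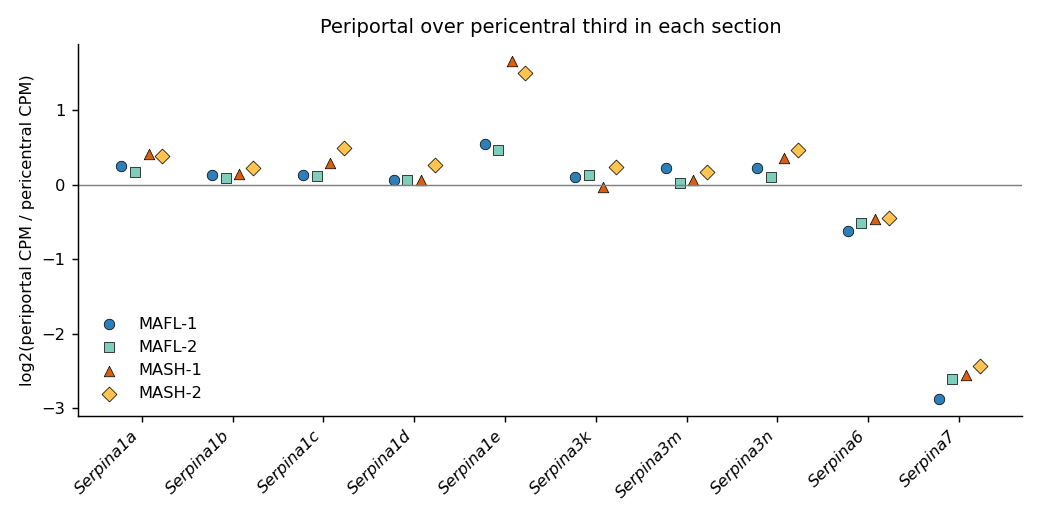
Log2 of the periportal over the pericentral level (CPM) of each Serpina gene, 1 point per section, with a line at equal levels. Serpina7 lies at -2.87 to -2.43 and Serpina6 at -0.62 to -0.45, while Serpina1e is at 0.55 and 0.47 in MAFL and at 1.66 and 1.495 in MASH.

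The other alpha-1-antitrypsin copies had each MASH section below each MAFL section, and none passed the test. Serpina1c, the copy with most UMIs in all 4 sections, stood at 11972 and 10422 CPM in MAFL and 7032 and 6104 CPM in MASH (log2 difference of -0.86 with an SE of 0.21, adjusted p = 0.118 in edgeR). Serpina1a stood at 5418 and 4769 against 3675 and 3332 CPM (-0.64, adjusted p = 0.175 in edgeR), and Serpina1d at 4832 and 5318 against 3499 and 2879 CPM (-0.77, adjusted p = 0.148). Serpina1b differed least, with 6881 and 7403 against 6320 and 5463 CPM (-0.38, adjusted p = 0.365). Within zones the pericentral differences of these copies reached -1.05 for Serpina1c, and without MASH-1 all 4 passed there (Serpina1c -1.37, adjusted p = 0.000159), in a fit that called 1517 of 12338 genes against 71 of 11802 with all sections. Serpina1c was also past the threshold pericentrally without MASH-2 (-0.80, adjusted p = 0.0419, 355 genes called) and midlobularly without MASH-1 (-1.13, adjusted p = 0.0377, 368 genes called against 52).

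Because how reads that match several copies were assigned is not given in the sources used here, values of single copies are uncertain and the 5 were also summed. The sum stood at 36656 and 30985 CPM in MAFL and 21485 and 18244 CPM in MASH (33820 ± 4010 and 19864 ± 2292, SD, n = 2 each). The sections did not overlap, and the log2 difference of -0.86 (SE 0.23) did not pass (adjusted p = 0.127 in edgeR). Without MASH-1 it was -1.07 and passed (adjusted p = 0.0493). Serpina1c held 33.2% and Serpina1e 33.0% of the difference between the group means of 13956 CPM, Serpina1d 13.5%, Serpina1a 11.4% and Serpina1b 8.96%. Over the same sections the major urinary protein genes, another abundant secreted family, took 6.85 and 5.73% of UMIs in MAFL and 3.70 and 3.602% in MASH, and their part in the CPM of other genes was not tested.

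The share of each copy among the alpha-1-antitrypsin transcripts is described without a test. Serpina1e gave 20.6 and 9.92% of them in MAFL and 4.46 and 2.55% in MASH. Serpina1b gave 18.8 and 23.9% in MAFL and 29.4 and 29.9% in MASH, and Serpina1a 14.8 and 15.4% against 17.1 and 18.3%. None of these 3 copies' shares overlapped between the groups. The shares of a section add up to the whole, so a lower share of Serpina1e raises those of the other copies. Which copies changed in level cannot be read from the shares. Serpina1c had nearly the same share in both groups, 33.1 ± 0.69% in MAFL and 33.1 ± 0.52% in MASH (SD, n = 2 each). Its CPM was lower in both MASH sections. Serpina1d gave 13.2 and 17.2% in MAFL, on either side of its 16.3 and 15.8% in MASH. Within MASH the share of Serpina1e was 2.002 ± 0.72% in the pericentral zone and 4.86 ± 2.31% in the periportal zone.

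**Figure D4:**
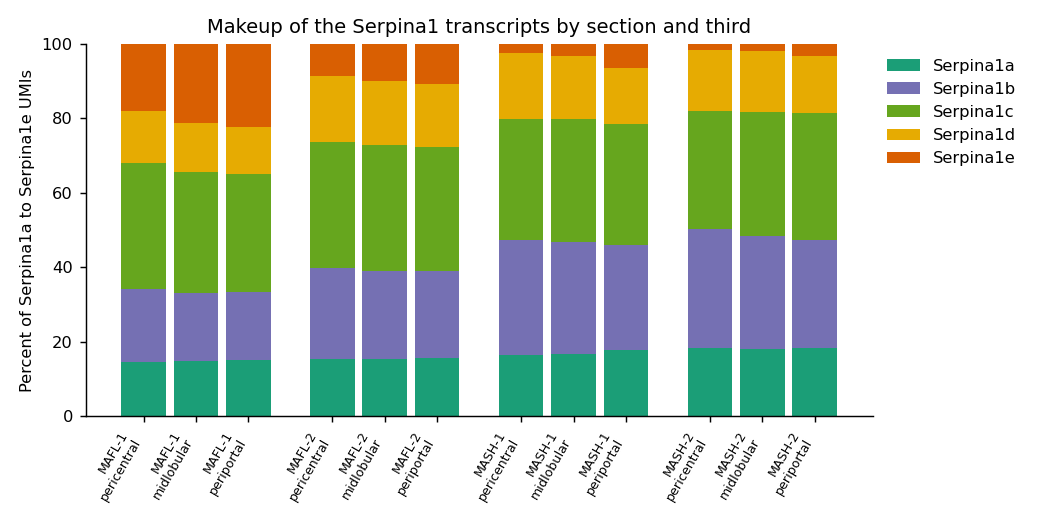
Percent of the summed Serpina1a to Serpina1e UMIs that each copy gave, for each section and lobule zone, as stacked bars from 0 to 100. The Serpina1e segment at the top takes 17.9 to 22.4% in MAFL-1 and 8.68 to 10.9% in MAFL-2. It takes 2.51 to 6.49% in MASH-1 and 1.49 to 3.23% in MASH-2, and the Serpina1b segment is taller in MASH.

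Alpha-1-antitrypsin transcripts were somewhat more abundant periportally. All 5 copies passed the zone test, with log2 differences, periportal over pericentral, of 0.35 for Serpina1a (adjusted p = 2.3e-06 in edgeR), 0.30 for Serpina1c (0.000396), 0.18 for Serpina1b (0.0076), 0.15 for Serpina1d (0.036) and 1.10 for Serpina1e (0.0234). Their sum was 1.23-fold higher periportally (adjusted p = 7.3e-05 in edgeR). The call of Serpina1d was lost without MAFL-1 (0.17, adjusted p = 0.0655), without MAFL-2 (0.18, 0.0966) and without MASH-2 (0.07, 0.171), and also in DESeq2 (0.15, 0.0676), with a zone score of 6 and 6 genes (0.14, 0.0522) and on the end zones alone (0.14, 0.183). That of Serpina1e was lost without MAFL-1 (1.27, adjusted p = 0.054), without MASH-1 (0.89, 0.132) and without MASH-2 (0.92, 0.128). In all, 9 of 10 members passed the zone test, 7 higher and 2 lower periportally, where 23.0% of all genes passed, 11.3% higher and 11.7% lower. Beside them stood 7 members higher periportally in 4 of 4 sections (13.4% of all genes) and 2 lower in 4 of 4 (19.9%), Serpina6 and Serpina7. Fitted on the end zones alone, 5 members passed, Serpina1a, Serpina1c, Serpina3n, Serpina6 and Serpina7. Over the groups, 7 members had a higher ratio of periportal to pericentral level in each MASH section than in any MAFL section, against 12.1% of all genes. A lower ratio in each MASH section was seen for 24.2% of all genes. The 7 were Serpina1a, Serpina1b, Serpina1c, Serpina1e, Serpina3n, Serpina6 and Serpina7. Serpina6 and Serpina7 are lower periportally, so for them a higher ratio is a smaller zone difference.

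Spread from spot to spot is given as variance over mean, which grows with the mean and ranks no copies. For Serpina1e the variance over spots thinned to 5000 UMIs was 2.29, 1.43, 3.25 and 2.10 times the mean, MAFL sections first. For Serpina1c, whose mean in MASH-2 was 29.2 UMIs against 2.01 for Serpina1e, it was 1.33, 1.18, 1.68 and 2.49 times. In thinned MASH-1 spots the 10th percentile, median and 90th percentile of Serpina1e were 1, 3 and 9 UMIs. It was found in 94.1% of thinned MASH-1 spots and 78.2% of thinned MASH-2 spots, and in 100% in both MAFL sections.

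Among the antichymotrypsin-like genes the groups were apart for Serpina3k and overlapped for its neighbours. Serpina3k, contrapsin, an inhibitor of trypsin-like enzymes and kallikrein, stood at 14645 and 11332 CPM in MAFL and 7193 and 7939 CPM in MASH. The groups did not overlap, and the log2 difference of -0.88 (SE 0.21) did not pass (adjusted p = 0.110 in edgeR). It was -0.87 to -0.92 in the 3 zones, none past the threshold, and passed pericentrally without MASH-1 (-1.05, adjusted p = 0.00346) or without MASH-2 (-0.82, 0.0377). Its zone difference of 0.15 missed the threshold narrowly (adjusted p = 0.0501 in edgeR). MASH-1 had 7248 CPM pericentrally and 7104 periportally, and the other sections were higher periportally. It passed in 7 of 14 alternatives, among them the fit without MASH-1 (0.21, adjusted p = 0.00549), that with no filter (0.15, 0.0144) and that with zones ranked within bins of total UMIs (0.11, 0.0324). MASH-1 and MASH-2 differed here, and the interaction was 0.27 without MASH-1 (adjusted p = 1.4e-08) and -0.17 without MASH-2 (adjusted p = 0.003), against 0.05 with both (adjusted p = 0.953 in edgeR).

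Serpina3n, an acute phase inhibitor of granzyme B and related proteases, stood at 377 and 477 CPM in MAFL and 424 and 454 CPM in MASH. Serpina3m stood at 314 and 494 CPM in MAFL and 449 and 323 CPM in MASH. For both, the MASH sections lay between the MAFL sections. Log2 differences were -0.07 (SE 0.20, adjusted p = 0.878 in edgeR) for Serpina3n and -0.16 (SE 0.30, adjusted p = 0.797) for Serpina3m. Both were higher periportally, by 0.33 (adjusted p = 3.8e-05 in edgeR) and 0.16 (0.0123), though Serpina3m did not pass without MAFL-1 (0.13, adjusted p = 0.127) or without MASH-2 (0.10, 0.0828). The pericentral and periportal levels of Serpina3n were 342 and 400 CPM in MAFL-1, 457 and 490 in MAFL-2, 370 and 477 in MASH-1 and 365 and 506 in MASH-2. Its zone difference was larger by 0.32 in MASH (SE 0.09, adjusted p = 0.138 in edgeR), and past the threshold without MASH-1 (0.46, adjusted p = 3.4e-07).

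For Serpina6, the glucocorticoid carrier, a zone difference passed the test and a group difference did not. It stood at 139 and 217 CPM in MAFL and at 197 and 169 CPM in MASH, with the MASH sections inside the range of the MAFL sections (log2 difference -0.06, SE 0.26, adjusted p = 0.917 in edgeR). Pericentral and periportal zones held 169 and 110 CPM in MAFL-1, 253 and 177 in MAFL-2, 229 and 167 in MASH-1 and 203 and 149 in MASH-2. The pericentral level was 1.36 to 1.54 times the periportal one in all 4 sections (log2 difference -0.47, SE 0.05, adjusted p = 1.9e-10 in edgeR). Both hormone carriers were higher near the central vein, and they were the 2 members lower periportally in the zone test. The interaction of Serpina6 was 0.17 (adjusted p = 0.598 in edgeR), and passed without MASH-1 (0.27, adjusted p = 0.033).

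**Figure D5:**
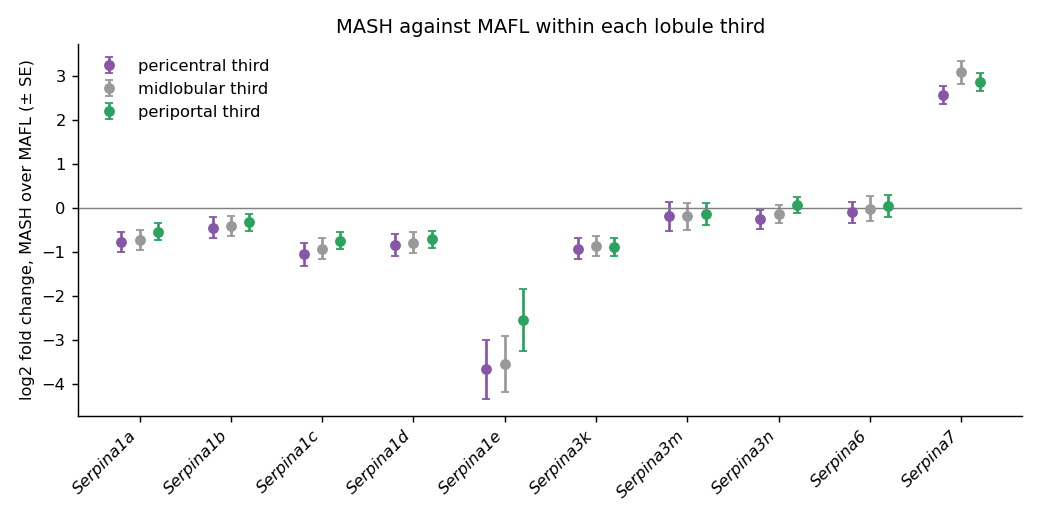
Log2 fold change of each Serpina gene, MASH over MAFL, fitted in edgeR within the pericentral, midlobular and periportal zone, with bars of 1 SE. Serpina7 lies at 2.56, 3.09 and 2.88, Serpina1e at -3.66, -3.54 and -2.55 with wide bars, and Serpina3m, Serpina3n and Serpina6 near 0.

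Over whole sections, then, 6 members had each MASH section below each MAFL section (Serpina1a to Serpina1e and Serpina3k), 1 had each above and 3 overlapped. Of all genes tested 52.3% did not overlap, 18.2% lower and 34.1% higher. The median log2 difference of the 10 was -0.51, against 0.01 over all genes. DESeq2 called 627 of the 13593 genes against 62 in edgeR, and 6 members, Serpina7 higher and Serpina1a, Serpina1c, Serpina1d, Serpina1e and Serpina3k lower. At an unadjusted p under 0.05 in edgeR stood 2605 of the 13593 genes. The unadjusted and DESeq2 counts of the gene lists below are to be read beside these all-gene counts.

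Among other Serpina genes, 8 of 15 listed could be tested over whole sections and none passed in edgeR (4 at an unadjusted p under 0.05, and 3 in DESeq2, Serpina11, Serpina3c and Serpina3g). Of 14 other liver serpins none passed (3 unadjusted, 0 in DESeq2). Along the lobule 2 of 7 other Serpina genes tested were higher periportally and 1, Serpina3c, lower, against 11.3% higher and 11.7% lower among all genes. Those higher were Serpina12, the adipokine vaspin (log2 difference 0.89, adjusted p = 3.7e-05 in edgeR), and Serpina10, the protein Z-dependent inhibitor (0.20, adjusted p = 0.000595). Of the other liver serpins 4 of 13 tested were higher and 1 lower. Serpinf2, the plasmin inhibitor, was higher periportally (0.41, adjusted p = 1.1e-08 in edgeR), and Serpinb1a, an inhibitor of neutrophil proteases, lower (-1.43, adjusted p = 5.0e-10). Of the proteases that serpins inhibit, 0 of 14 tested passed between the groups in edgeR (2 unadjusted, both lower, and 0 in DESeq2). Summed neutrophil markers, which include elastase (Elane), took 8.84 to 19.3 CPM in MAFL and 8.79 to 20.3 CPM in MASH, and Ly6g and Mpo were at 0 in 3 and 2 of the 4 sections.

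The carriers, transporters and enzymes of thyroid hormone around Serpina7 showed no change between the groups that passed (0 of 12 tested in edgeR, 0 at an unadjusted p under 0.05 and 0 in DESeq2, median log2 difference 0.10). Along the lobule 8 of 12 were lower and 1 higher periportally, against 11.7% lower and 11.3% higher among all genes. The uptake carriers Slco1b2 (-1.18, adjusted p = 4.0e-16 in edgeR) and Slc16a10 (-1.11, 1.5e-14) were pericentral, as Serpina7 was, while Alb, albumin, which also binds thyroxine, was periportal (0.92, 2.7e-16). Of 13 thyroid hormone receptors and target genes tested none passed between the groups in edgeR (4 unadjusted, all higher, and 0 in DESeq2). Among all 13593 genes 2605 were under 0.05 unadjusted and 627 were called in DESeq2. The lipogenic target Thrsp stood at 29.7 and 123 CPM in MAFL and 344 and 503 CPM in MASH (log2 difference 2.34, adjusted p = 0.252), and its zone difference was lower in MASH by 0.60 (interaction -0.60, adjusted p = 0.000257 in edgeR).

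Of 16 genes of corticosteroid metabolism and response, the setting of Serpina6, none passed between the groups in edgeR (2 unadjusted, both higher, and 0 in DESeq2). Along the lobule 6 of 16 were higher and 3 lower periportally, against 11.3% higher and 11.7% lower among all genes. Hsd11b1, which regenerates active glucocorticoid, was periportal (0.94, adjusted p = 1.3e-08 in edgeR) and Akr1c6, a steroid-reducing enzyme, pericentral (-0.76, 2.0e-14). The metallothioneins Mt1 and Mt2 and Hsd11b1 had larger zone differences in MASH (interactions 0.67, 0.55 and 0.42, adjusted p = 5.6e-05, 0.000861 and 0.0097 in edgeR).

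Of 25 acute phase genes, the class of Serpina3n, none passed over whole sections in edgeR (12 unadjusted, 4 higher and 8 lower, and 8 in DESeq2, 4 each way), with a median log2 difference of -0.23. Periportally 16 of 25 were higher and 1 lower, against 11.3% higher and 11.7% lower among all genes. The list median was 0.28, against 0.01 over all genes. The haem carrier Hpx (0.59, adjusted p = 1.7e-11 in edgeR) and Itih3 (0.53, 6.3e-10) were among them, and Orm3 was the 1 that was lower (-0.998, 5.7e-07). Saa1 had a larger zone difference in MASH (interaction 0.87, adjusted p = 4.1e-07 in edgeR).

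Of 20 liver transcription factors tested none passed between the groups in edgeR (4 unadjusted, 1 in DESeq2, Foxa2 lower). Of 18 genes of secretory folding and export none passed (1 unadjusted, 0 in DESeq2, median -0.30). In growth hormone signalling 1 of 10 passed, the repressor Bcl6 (1.74, adjusted p = 0.00863 in edgeR), which stood at 11.1 and 9.23 CPM in MAFL and 34.04 and 38.6 CPM in MASH. Of 13 male-biased liver genes none passed (6 unadjusted, all lower, and 4 in DESeq2, all lower, median -0.83), and of 6 tested female-biased genes 1 did, Cyp2c40, which was lower (-2.12, adjusted p = 0.0406 in edgeR) at 3.597 and 4.69 against 0.878 and 1.19 CPM. Of the female-biased genes 4 were at an unadjusted p under 0.05, 3 higher and 1 lower. DESeq2 called 3 of them, Cyp2a4 and Cyp2b9 higher and Cyp2c40 lower, and the list median was 1.055, from 6 of 15 genes listed. Cyp2a4 stood at 0.124 and 0.157 CPM in MAFL and 0.282 and 2.38 CPM in MASH. Cyp2b9 stood at 0 and 0.0525 against 0.313 and 1.73 CPM, so both lay near the floor.

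Summed markers of several other cell types were apart between the groups and those of others overlapped. Monocyte and lipid-associated macrophage genes summed to 136 to 141 CPM in MAFL and 447 to 520 CPM in MASH, with 3 of 10 past the threshold in edgeR, Lyz2 (1.85, adjusted p = 0.00863), Tyrobp (1.54, 0.0297) and Fcer1g (1.18, 0.0406). Kupffer cell genes summed to 504 to 641 CPM in MAFL and 977 to 1054.5 CPM in MASH (0 of 9 in edgeR, 5 unadjusted, 3 in DESeq2), and stellate and fibroblast genes to 237 to 249 and 385 to 604 CPM (0 of 9 in edgeR, 9 unadjusted, 3 in DESeq2). Summed endothelial markers (208 to 216 against 254 to 302 CPM) did not overlap either, with 0 of 8 past the threshold in edgeR (2 unadjusted, 0 in DESeq2). The same held for T and NK cell markers (10.4 to 12.5 against 27.7 to 33.6 CPM), with 1 of 8 past it, Ccl5. B and plasma cell markers (5.55 to 9.99 against 12.2 to 33.9 CPM) were also apart, with 0 of 5 past it. Of all single genes tested 52.3% did not overlap. Neutrophil, cholangiocyte (11.3 to 14.1 against 10.5 to 33.02 CPM) and erythroid (1669 to 2783 against 1420 to 4208 CPM) sums overlapped. Hepatocyte markers had 0 of 11 past the threshold in edgeR (0 unadjusted, 0 in DESeq2). The part of these cells in the differences of Serpina7 and of the lower members was not tested.

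Genes with the pattern most like that of Serpina7, Serpina6, Serpina3n and Serpina1e were found over the 12 sums of section and zone, among 4176 genes of at least 20 CPM on average, by Pearson's r of log2(CPM + 1). The 12 sums share 4 libraries, so r is a description. For Serpina7 they were Tle5, Ermp1 and Bscl2 (r = 0.98 each), Bdh1 (0.98) and Reln (0.97), a secreted glycoprotein and one of the listed stellate markers. None of the 5 passed between the groups over whole sections, where their log2 differences were 0.04 for Tle5, 0.39 for Ermp1, 0.24 for Bscl2, 0.20 for Bdh1 and 0.41 for Reln, against 2.59 for Serpina7. Reln stood at 48.4 and 44.9 CPM pericentrally in MAFL and at 59.2 and 66.3 CPM in MASH. For Serpina6 they were Slc10a1, the bile acid carrier, Dcxr, Prodh and Gchfr (0.97 each) and Tango2 (0.95). For Serpina3n they were Mt2 (0.96), Tmem86b and Afm (0.93 each), Arg1 (0.92) and Kynu (0.91). For Serpina1e they were Serpina1c, Serpina1a and Shfl (0.99 each), Abca8a and the fibrinogen chain Fgb (0.98 each).

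Within sections, over spots thinned to 5000 UMIs, members were weakly related. Spearman's rho between Serpina1a and Serpina1c was 0.08 to 0.34 over the 4 sections and that between Serpina1c and Serpina3k 0.09 to 0.47. Serpina7 with Serpina1c gave -0.25 to -0.03, and Serpina7 with Serpina6 0.00 to 0.05. Spots of a section share a library, and in counts this sparse such values are descriptions.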

How the data were processed

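The deposited matrices hold counts of UMIs per gene and spot, per the file headers, which name Space Ranger 1.2.2. The submitters' processing notes name mm10. The treatment of reads matching several genes is not given in the sources used here. Spots under 500 UMIs were left out (3 each in MAFL-1 and MASH-1). Counts were summed per section, or per section and lobule zone (12 sums), and tested by robust quasi-likelihood in edgeR 4.0.16 (after filterByExpr and TMM scaling, Benjamini-Hochberg over all genes tested, threshold 0.05). Zone and interaction fits had the section as a block and left out Cyp2f2 and Cyp2e1. Fits were tested on simulated data. Counting error is small at 32249289 to 63808230 UMIs per section: counts of replicate sections gave a chi-square of 67.7 (MAFL) and 116 (MASH) per degree of freedom. Any 2 sections shared 1180 to 1723 spot barcodes.

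The 10 genes, the 25 gene lists and the tests were chosen with earlier results of these data known. All 10 members are named throughout. From other lists up to 4 genes of smallest p per comparison may be named, and for 4 members the 5 genes of most like pattern. Reln, Bcl6 and the macrophage markers follow from these rules, and single zero markers were named after their values were seen. Serpina3h and Tf are not analysed here. Alternatives were DESeq2 1.42.0, other size factors, library totals, other filters, other zone classes, a replicate block and each section left out.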

Additional observations from a re-analysis of the deposited data

Results flagged for a closer look

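Serpina1e met 1 criterion for a closer look: its zone difference was not the same in the 2 groups, by the interaction test. The difference of the log2 periportal over pericentral ratios, MASH minus MAFL, was 1.13 (SE 0.10, adjusted p = 2.5e-10 in edgeR), with ratios of 1.46 and 1.39 in MAFL and 3.17 and 2.82 in MASH. Values of single copies are uncertain. For the 5 copies summed the interaction was 0.21 and did not pass (adjusted p = 0.574 in edgeR). Serpina1e gave 4.46 and 2.55% of the summed UMIs in MASH, so the sum says little about its slope.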

How the results depend on the processing

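Counts of members past the threshold depended on the fit. Over whole sections (1 member) the count was 6 in DESeq2, 4 with no filter on low counts, 4 with crossed numbers as a block and 1 to 2 with 1 section left out. In the periportal zone (1) these counts were 4, 5, 4 and 1 throughout, in the midlobular zone (1) 6, 4, 4 and 1 to 2, and in the pericentral zone (1) 6, 5, 2 and 1 to 6. The zone count (9) was 5 on the end zones alone and 6 to 9 with a section left out. The interaction count (1) was 2 with library totals, 3 with no filter, 2 with genes of at least 10 CPM and 1 to 8 with a section left out. The interaction of Serpina3k (0.05) reversed to -0.17 without MASH-2 and was 0.27 without MASH-1. The cause of these changes was not tested.

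Deviations of same-numbered sections correlated at -0.19 over 4161 genes. The labels name no batch, and this correlation cannot tell whether same-numbered sections share one. With the replicate block 0 members passed over whole sections in edgeR (Serpina7 at 2.58, adjusted p = 0.0668), and 0 of all 13593 genes, with 1900 at an unadjusted p under 0.05. Without the block 62 passed, with 2605 unadjusted. DESeq2 was not run with the block. Within each zone 2 members passed with the block, Serpina7 and Serpina1e. With numbers crossed, chosen after seeing the data, 779 genes passed. All-gene counts over whole sections went from 62 to 20 without MAFL-1, 89 without MAFL-2, 535 without MASH-1, 23 without MASH-2, 627 in DESeq2, 1153 with no filter and 21 with genes of at least 10 CPM. In the zones they ranged over the alternatives from 27 to 1517 (pericentral, 71 as reported), 19 to 954 (midlobular, 52) and 71 to 1177 (periportal, 159), and for the interaction from 7 to 447 (65). Library totals alone moved the median of all genes from 0.01 to 0.11. Serpina7 was past the threshold in 11 of 12 whole-section alternatives and in 14 of 14 of each zone. Shares of spots with Serpina7 scale with depth: thinned to 3000 UMIs they averaged 2.35% in MAFL and 13.9% in MASH.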
